A study of Mus musculus with 12 samples.

Results

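The enzymes that write, copy and remove methylation of cytosine in DNA were followed in mouse embryonic stem (ES) cells labelled as lacking H4K20 methyltransferases, and in cells differentiated from them. The set holds 10 genes, chosen by symbol, with earlier results of these data known: the de novo methyltransferases Dnmt3a and Dnmt3b with their cofactor Dnmt3l, the maintenance methyltransferase Dnmt1 with Uhrf1 and Hells, the dioxygenases Tet1, Tet2 and Tet3, and the glycosylase Tdg. These are 10 of the 22878 gene symbols measured, all 10 were found, and each is represented by its longest transcript model. Polyadenylated RNA was sequenced in 12 libraries of 3 genotypes: cells labelled SUV420H2 KO (KO here), cells labelled SUV420H1_H2 DKO (DKO) and WT cells. The targeted enzymes place the di- and trimethyl marks on lysine 20 of histone H4, of which the trimethyl mark is one of heterochromatin. Per genotype there were 2 ES libraries, undifferentiated, and 1 library at each of days 8 and 12 of differentiation. According to the growth protocol, all ES cells were kept on gelatin with 1.5 µM of the GSK3 inhibitor CHIR9901 over several passages until feeder cells were gone. The labels give neither the strain, the sex, the number of clones behind a genotype nor the method of differentiation. Nor is it stated that paired ES libraries came from separate cultures, so p-values of the ES comparisons measure the spread between these libraries, which may be technical.

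As background, Dnmt3a and Dnmt3b methylate unmethylated DNA, and Dnmt3l, which has no catalytic activity of its own, binds and stimulates them in ES and germ cells. Uhrf1 recognises hemimethylated DNA behind the replication fork and brings Dnmt1 there, while the helicase Hells (Lsh) opens nucleosomal DNA to methylation. The Tet enzymes oxidise 5-methylcytosine, and Tdg excises the oxidised forms 5-formylcytosine and 5-carboxylcytosine, which base excision repair replaces with cytosine. In mouse, Tet1 and Tet2 are the main family members of ES cells, and Tet3 is known from the oocyte and from differentiated cells.

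Reads in genes numbered between 22538336 and 26675600 per library, so that the least covered member still had 90 reads (Dnmt3l, WT day 12). Suv420h2 stood at 19.11 and 17.3 CPM in KO ES cells and 23.4 and 15.0 CPM in DKO ES cells, against 123 and 112 CPM in WT ES cells, where CPM is the read count scaled to library size with TMM factors. Suv420h1 was at 61.0 and 70.6 CPM in DKO ES cells, against 44.7 and 49.8 CPM in WT ES cells. Counts over a whole transcript do not test a deletion of single exons, so the second deletion rests on the label alone and every statement on DKO is one on the libraries so labelled. All 18 pluripotency markers examined, Pou5f1, Sox2 and Nanog among them, had at least 1 CPM in every library, the differentiated ones included. Their summed level was 13230 and 14010 CPM in KO ES cells, 21400 and 19520 CPM in DKO ES cells and 17130 and 17050 CPM in WT ES cells. These are bulk libraries, in which fewer cells of a type and less RNA per cell cannot be told apart.

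Ranked per length, by the deposited RPKM, the order of the 10 genes differed between the genotypes. In KO ES cells Dnmt3l had the highest mean level (63.0 RPKM), ahead of Uhrf1 (50.7), Dnmt3b (32.1), Dnmt1 (25.1), Tet1 (22.4), Hells (20.7), Tet2 (12.9), Dnmt3a (12.2), Tdg (9.62) and Tet3 (2.80 RPKM). In DKO ES cells the order was Uhrf1 (41.7), Dnmt3l (26.9), Tet1 (25.2), Dnmt1 (22.7), Tet2 (19.15), Hells (14.1), Tdg (8.96), Dnmt3a (8.70), Tet3 (5.12) and, lowest of the 10, Dnmt3b (3.38 RPKM). In WT ES cells it was Uhrf1 (46.6), Tet1 (31.8), Dnmt1 (27.6), Dnmt3l (22.7), Hells (19.08), Dnmt3b (18.3), Tet2 (16.5), Dnmt3a (10.2), Tdg (1.65) and Tet3 (1.56 RPKM). Neighbours in these orders whose single libraries interleaved were Dnmt1 with Tet1, Tet1 with Hells and Tet2 with Dnmt3a in KO, and Dnmt3l with Tet1, Tet1 with Dnmt1 and Tdg with Dnmt3a in DKO. Hells and Dnmt3b in WT were at 19.6 and 18.5 and at 18.4 and 18.2 RPKM, a gap no wider than the spread of Hells.

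**Figure D1:**
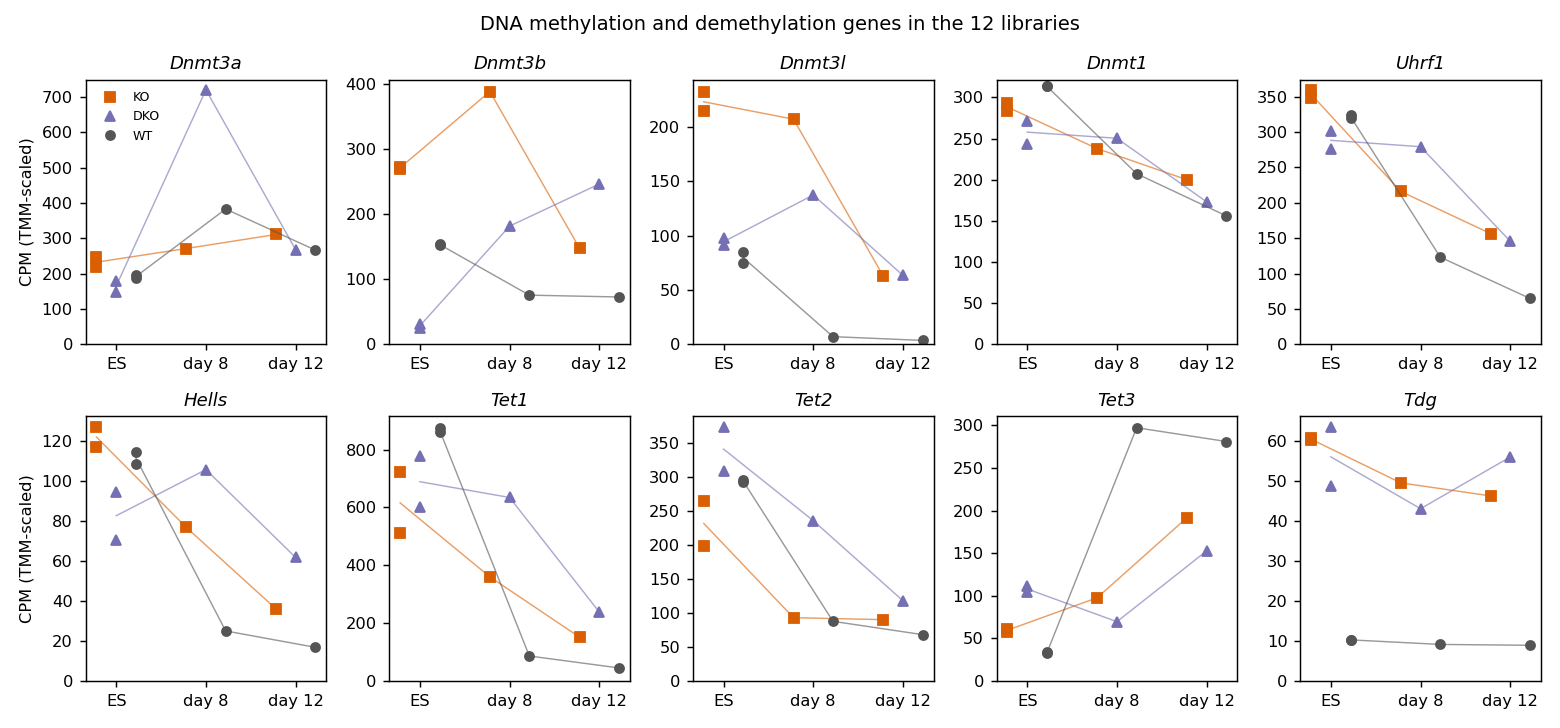
TMM-scaled CPM (y axis, from 0) of the 10 genes in ES cells and at days 8 and 12 (x axis), with 1 point per library in KO, DKO and WT cells and lines through the means. The Dnmt3b points of DKO ES cells (25.5 and 31.1 CPM) lie far below those of WT ES cells (153 and 153 CPM), and the lowest Tdg point of a mutant (43 CPM, DKO day 8) lies above the highest of WT (10.3 CPM).

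In ES cells the first question is which members differ without SUV420H2. In KO against WT ES cells 4 of the 10 members were higher (Dnmt3b, Dnmt3l, Tet3 and Tdg) and 1 was lower (Tet1). Of all 12044 genes tested 23.5% were higher and 19.2% lower, 42.7% in all, so the members' share is near the background. In DKO against WT ES cells 2 were higher (Tet3 and Tdg) and 3 lower (Dnmt3b, Dnmt1 and Hells), against 32.2% and 31.7% of all genes, 63.9% together. In DKO against KO ES cells 2 were higher (Tet2 and Tet3) and 5 lower (Dnmt3a, Dnmt3b, Dnmt3l, Uhrf1 and Hells), against 33.3% and 34.1% of all genes, 67.3% together. The median log2 fold change of the members was 0.24, -0.18 and -0.25 in these 3 comparisons, in that order, beside -0.01, -0.01 and -0.02 over all genes tested. Log2 fold changes are written log2FC, with their standard error (SE). A gene counted as called when edgeR's quasi-likelihood test over the 6 ES libraries gave a Benjamini-Hochberg adjusted p under 0.05.

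Dnmt3b, on chromosome 2, was higher in KO and far lower in DKO ES cells than in WT. Its level was 273 and 269 CPM in KO ES cells, 25.5 and 31.1 CPM in DKO ES cells and 153 and 153 CPM in WT ES cells. The 3 pairs of libraries were well separated, with DKO lowest and KO highest. KO was above WT (log2FC 0.85, SE 0.12, adjusted p = 1.1e-04). In DKO it was the reverse (against WT, log2FC -2.43, SE 0.13, adjusted p = 2.0e-08), a level of 18.5% of WT, and below KO as well (log2FC -3.28, SE 0.13, adjusted p = 1.8e-09). The rise in KO was not called when the 12 libraries were fitted together (adjusted p = 0.14). The 5 transcript models of Dnmt3b differed by at most 2.3% in reads in any library, so the change does not tell the catalytically active and inactive splice forms apart. Of the 2 genes next to it, Mapre1 was at 190.1 and 187 CPM in KO, 207 and 232 CPM in DKO and 179.8 and 178.8 CPM in WT ES cells, and Commd7 at 18.1 and 18 CPM in KO, 13.1 and 14.5 CPM in DKO and 10.3 and 10 CPM in WT, so neither had the low level in DKO that Dnmt3b had.

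Promoters rich and poor in CpG, the methylated dinucleotide in mammals, can be read off the letters. Shown are the promoter of the member with the largest ES difference between the mutants and 2 of the 3 Dnmt3l promoters. They are windows of 300 bases, 250 before and 50 after an annotated start, on the plus strand of RefSeq's GRCm38.p6 and 5′ to 3′, with each CpG in capitals. Dnmt3b (chr2:153649199-153649498) holds 30 CpGs, and the upstream and second Dnmt3l windows (chr10:78042037-78042336 and chr10:78049592-78049891) hold 6 and 4, where the median of 32851 such windows is 7.
Dnmt3b: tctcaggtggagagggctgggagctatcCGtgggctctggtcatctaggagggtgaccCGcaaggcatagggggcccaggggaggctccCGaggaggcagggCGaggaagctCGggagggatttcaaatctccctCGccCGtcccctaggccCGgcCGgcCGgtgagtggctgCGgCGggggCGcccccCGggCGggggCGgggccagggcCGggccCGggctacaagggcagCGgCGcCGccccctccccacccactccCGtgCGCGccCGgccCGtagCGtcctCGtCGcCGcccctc
Dnmt3l upstream: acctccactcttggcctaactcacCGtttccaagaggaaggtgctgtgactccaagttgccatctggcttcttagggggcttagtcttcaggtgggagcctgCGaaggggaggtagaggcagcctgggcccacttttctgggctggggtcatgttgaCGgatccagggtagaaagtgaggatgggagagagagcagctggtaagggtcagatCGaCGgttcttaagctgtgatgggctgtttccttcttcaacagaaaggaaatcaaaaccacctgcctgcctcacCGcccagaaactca
Dnmt3l second: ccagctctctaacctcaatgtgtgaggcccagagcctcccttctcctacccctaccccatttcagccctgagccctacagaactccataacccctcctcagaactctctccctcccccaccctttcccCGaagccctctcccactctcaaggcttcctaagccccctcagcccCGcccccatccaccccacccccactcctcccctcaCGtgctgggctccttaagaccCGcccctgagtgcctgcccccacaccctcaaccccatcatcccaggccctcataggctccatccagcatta
At least 30 CpGs were present in 11.7% of all windows, and at least 6 in 56.4%. The third Dnmt3l window (chr10:78055085-78055384), not printed, holds 3 CpGs, and 76.7% of all windows hold at least as many. Methylation of these windows was not measured.

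Dnmt3l, on chromosome 10, was the member with the highest level per length in KO ES cells. Its level was 214 and 232 CPM in KO, 97.6 and 91.1 CPM in DKO and 74.6 and 84.8 CPM in WT ES cells. Both KO libraries were above all others, and the DKO libraries lay just above the WT ones. KO exceeded WT by 2.80-fold (log2FC 1.52, SE 0.12, adjusted p = 1.4e-06), and DKO was below KO (log2FC -1.26, SE 0.12, adjusted p = 1.4e-06). DKO against WT was not called (log2FC 0.25, SE 0.12, adjusted p = 0.075). The gene before it, Aire, was named after its values were seen: it had 25.8 and 23 CPM in KO, 0.948 and 0.699 CPM in DKO and 2.72 and 3.47 CPM in WT ES cells. The gene after it, Icosl, had 21.72 and 26.15 CPM in KO, 9.89 and 9.42 CPM in DKO and 12.69 and 11.84 CPM in WT ES cells. Both neighbours were highest in KO, as Dnmt3l was, and lowest in DKO, as Dnmt3l was not. Whether the neighbours and Dnmt3l are linked was not tested.

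Dnmt3a, on chromosome 12, differed less than its paralog. It was at 218 and 247 CPM in KO, 148 and 180.3 CPM in DKO and 196 and 187 CPM in WT ES cells, with KO above and DKO below WT in both libraries. Only DKO against KO was called (log2FC -0.52, SE 0.12, adjusted p = 0.0027), and not in the fit of all 12 libraries (adjusted p = 0.21). KO against WT stood at a log2FC of 0.31 (SE 0.12, adjusted p = 0.064) and DKO against WT at one of -0.21 (SE 0.12, adjusted p = 0.15). Its short model, of 5424 bases, held between 0.483 and 0.57 of the reads of the long one, of 9735 bases, over the 12 libraries. Because the models share reads, the promoter in use cannot be read from these counts.

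Of the maintenance genes, Dnmt1 and Hells were lower in DKO than in WT ES cells, and Uhrf1 and Hells lower in DKO than in KO. Dnmt1, the enzyme that copies methylation onto the new strand (chromosome 9), was at 283 and 294 CPM in KO, 272 and 244 CPM in DKO and 314 and 313 CPM in WT ES cells. Both mutants lay below WT in each library, and DKO against WT was called (log2FC -0.27, SE 0.11, adjusted p = 0.043). Uhrf1 (chromosome 17) was at 348 and 359 CPM in KO, 276 and 301 CPM in DKO and 324 and 319 CPM in WT ES cells, with DKO lowest and KO highest. DKO was lower than KO (log2FC -0.31, SE 0.11, adjusted p = 0.02). Hells (chromosome 19) was at 127 and 117 CPM in KO, 70.7 and 94.6 CPM in DKO and 114 and 109 CPM in WT ES cells, where the DKO libraries were the lowest and stood far apart. It was lower in DKO than in WT (log2FC -0.42, SE 0.14, adjusted p = 0.019) and than in KO (log2FC -0.58, SE 0.14, adjusted p = 0.0027). None of the 3 genes was called in KO against WT (adjusted p of 0.53, 0.24 and 0.39 for Dnmt1, Uhrf1 and Hells, edgeR). The Dnmt1 call was lost without DKO replicate 2, WT replicate 1 or WT replicate 2, with log2 fold changes between -0.33 and -0.17 over the leave-outs and adjusted p up to 0.23. The Hells call in DKO against WT was lost without DKO replicate 1 or either WT replicate (between -0.62 and -0.21, adjusted p up to 0.11), and the Uhrf1 call in DKO against KO without KO replicate 2 or either WT replicate (between -0.36 and -0.23, adjusted p up to 0.074). With all 12 libraries in the fit none of these 3 calls held (adjusted p of 0.11 for Dnmt1, 0.089 for Hells and 0.12 for Uhrf1). The Dnmt1 call was lost also with the replicate block (adjusted p = 0.071), with limma at both pseudocounts and with a filter of 5 RPKM (adjusted p of 0.057 to 0.059).

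Promoter windows of these 3 genes are shown because their levels moved together over the 12 libraries and because each holds an exact match to 1 of 2 E2F-type words, TTCCCGC and TTGGCGC, sought on both strands. Each window is read on its gene's strand, the match is in capitals, and the source is again RefSeq's GRCm38.p6. The Hells window (chr19:38930740-38931039, plus strand) has TTCCCGC starting 61 bases before the start, the first Uhrf1 window (chr17:56303087-56303386, plus strand) has it 48 bases before, and the first Dnmt1 window (chr9:20952574-20952873, minus strand) has TTGGCGC starting 34 bases after it.
Hells: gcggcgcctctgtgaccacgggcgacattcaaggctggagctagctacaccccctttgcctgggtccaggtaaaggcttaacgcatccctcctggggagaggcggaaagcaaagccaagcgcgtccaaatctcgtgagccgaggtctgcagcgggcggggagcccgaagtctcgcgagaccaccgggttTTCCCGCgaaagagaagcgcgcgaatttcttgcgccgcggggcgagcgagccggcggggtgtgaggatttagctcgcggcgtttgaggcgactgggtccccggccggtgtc
Uhrf1: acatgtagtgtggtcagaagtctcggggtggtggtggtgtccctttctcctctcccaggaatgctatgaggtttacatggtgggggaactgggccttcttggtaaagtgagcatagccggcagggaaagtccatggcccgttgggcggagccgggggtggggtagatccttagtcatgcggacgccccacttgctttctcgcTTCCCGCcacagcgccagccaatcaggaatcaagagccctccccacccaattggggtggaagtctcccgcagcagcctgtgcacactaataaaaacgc
Dnmt1: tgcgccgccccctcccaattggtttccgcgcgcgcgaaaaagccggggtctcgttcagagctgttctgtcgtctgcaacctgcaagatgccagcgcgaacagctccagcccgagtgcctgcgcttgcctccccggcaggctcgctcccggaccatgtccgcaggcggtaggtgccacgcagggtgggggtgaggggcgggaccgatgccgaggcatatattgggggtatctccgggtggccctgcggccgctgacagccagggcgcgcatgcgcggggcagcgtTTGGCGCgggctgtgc
Of the 17 windows of the 10 members these 3 held a match, and 6.8% of all 32851 windows did. A match describes letters and not a bound site. The 3 genes were chosen with their matches known, so match and shared pattern do not bear on each other. Tet1 moved as closely with Hells (Pearson r over the 12 libraries 0.97), Uhrf1 (0.96) and Dnmt1 (0.87), and its window holds no match. Dnmt1 and Hells correlated at 0.84.

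Among the dioxygenases, Tet1 and Tet3 differed from WT in opposite directions. Tet1 (chromosome 10) was at 721 and 509.8 CPM in KO, 602 and 776 CPM in DKO and 862 and 873 CPM in WT ES cells. All 4 mutant libraries lay below both WT libraries, and the 2 libraries of each mutant were far apart. Lower in KO than in WT (log2FC -0.46, SE 0.16, adjusted p = 0.036), Tet1 lost that call without KO replicate 2 or either WT replicate, with log2 fold changes between -0.73 and -0.21 over the leave-outs and adjusted p up to 0.37. It lost it also with a filter of 5 RPKM and with all 12 libraries in the fit (adjusted p up to 0.16). DKO against WT was not called (log2FC -0.32, SE 0.16, adjusted p = 0.10).

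Tet3 (chromosome 6), the paralog lowest in WT ES cells, was at 61.2 and 58.0 CPM in KO, 111 and 105 CPM in DKO and 32.3 and 33.6 CPM in WT ES cells. The pairs were close and did not overlap, with DKO highest. KO was 1.81-fold above WT (log2FC 0.88, SE 0.12, adjusted p = 8.8e-05), DKO 3.27-fold above WT (log2FC 1.72, SE 0.12, adjusted p = 1.8e-07) and DKO above KO (log2FC 0.84, SE 0.12, adjusted p = 4.4e-05). The call in KO against WT was lost with all 12 libraries in the fit (adjusted p = 0.055). The median log2 fold change of the 532 tested genes of chromosome 6 in KO against WT was 0.23; Tet3 lay above that median. Tet2 (chromosome 3) was at 265 and 198 CPM in KO, 308 and 374 CPM in DKO and 292 and 295 CPM in WT ES cells, with all KO libraries below and all DKO libraries above WT. Only DKO against KO was called (log2FC 0.54, SE 0.15, adjusted p = 0.006), and the call was lost without KO replicate 2 (values between 0.31 and 0.74 over the leave-outs, adjusted p up to 0.10) and with all 12 libraries in the fit (adjusted p = 0.096).

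Tdg (chromosome 10) showed the largest rise of the 10 members in both mutants. Its row held 60.1 and 60.7 CPM in KO, 48.6 and 63.4 CPM in DKO and 10.2 and 10.3 CPM in WT ES cells. The lowest mutant library, at 48.6 CPM, stood far above the highest WT library, at 10.3 CPM. The value was 5.89-fold higher in KO than in WT (log2FC 2.59, SE 0.16, adjusted p = 2.0e-07) and 5.46-fold higher in DKO (log2FC 2.46, SE 0.16, adjusted p = 8.9e-08), and DKO against KO was not called (log2FC -0.13, SE 0.14, adjusted p = 0.44). At days 8 and 12 the KO row stayed at 49.5 and 46.2 CPM and the DKO row at 43.0 and 56.0 CPM, against 9.12 and 8.91 CPM in WT. A near-identical copy limits all Tdg values: the row Gm9855, on the same chromosome, held the same number of reads within 3.73% in all 12 libraries, for example 1444 reads beside 1451 for Tdg in KO ES replicate 1 and 237 beside 243 in WT ES replicate 1. Reads from Tdg and from this copy therefore cannot be told apart, and the difference belongs to the 2 rows together. No other member had such a row within 5%.

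**Figure D2:**
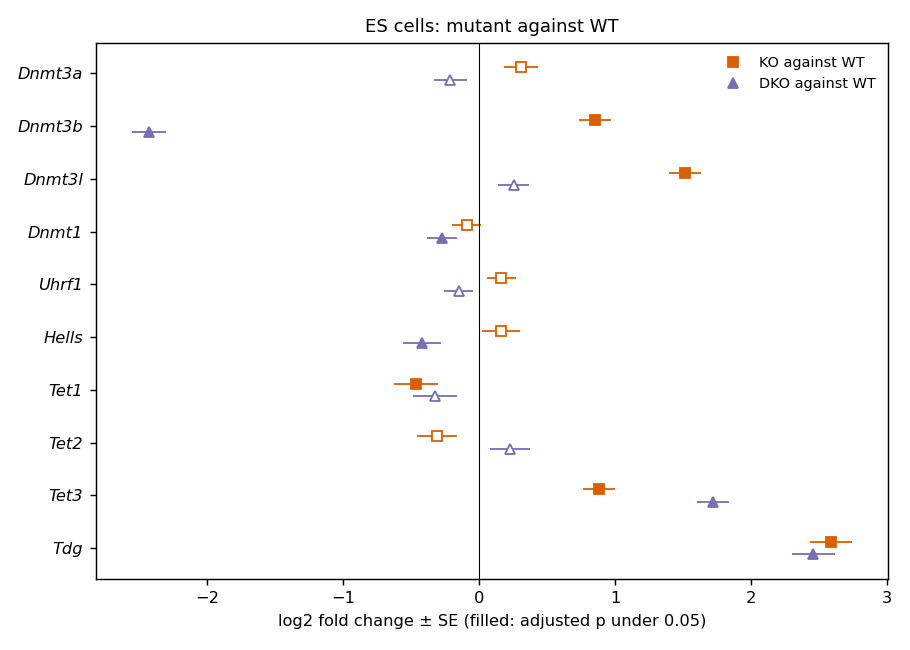
Log2 fold change (x axis, with SE as bars) of the 10 genes (y axis) in KO against WT and DKO against WT ES cells, 2 libraries per genotype, with filled markers for adjusted p under 0.05. Dnmt3b lies at 0.85 in KO and -2.43 in DKO, on opposite sides of 0, and Tdg at 2.59 in KO and 2.46 in DKO.

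The second question is how the members change on differentiation. Within KO, days 8 and 12 against ES cells, 1 of 10 members was higher (Tet3) and 6 were lower (Dnmt3l, Dnmt1, Uhrf1, Hells, Tet1 and Tet2), while 15.8% of all 13429 genes tested were higher and 13.5% lower (29.3% together). Within DKO 2 were higher (Dnmt3a and Dnmt3b) and 3 were lower (Uhrf1, Tet1 and Tet2), against 10.4% and 9.24% of all genes (19.7% together). Within WT 1 was higher (Tet3) and 7 were lower (the 6 named for KO and Dnmt3b), against 31.2% and 29.8% of all genes (61.1% together). The median member changed by -0.65 in KO, -0.11 in DKO and -1.4 in WT on the log2 scale, beside 0.02, 0.01 and 0.02 over all genes in that order. Each genotype has 1 library a day, so days 8 and 12 served as the 2 differentiated libraries, with day as a covariate. The p-values within genotypes and of the interactions therefore rest on the spread of the ES pairs. They rest also on how the change from day 8 to day 12 varied between genotypes, which is not a spread of replicates.

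Dnmt3l fell the most in WT. It was at 207 and 62.9 CPM in KO at days 8 and 12, 138 and 63.4 CPM in DKO and 6.96 and 3.5 CPM in WT, so that the lowest mutant library, at 62.9 CPM, stood well above the highest WT library, at 6.96 CPM. Within KO its log2FC was -0.93 (SE 0.18, adjusted p = 0.0076), a call lost without KO ES replicate 2 or KO day 12 (values between -1.36 and -0.62, adjusted p up to 0.061). In WT it fell by 3.97 (SE 0.21, adjusted p = 1.0e-05). In DKO the change was -0.01 (SE 0.18, adjusted p = 0.98), with no direction to give because the sign turned under other scalings. The change was 3.03 higher in KO than in WT (interaction, SE 0.26, adjusted p = 0.0011) and 3.96 higher in DKO than in WT (SE 0.27, adjusted p = 7.6e-05).

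Dnmt3b went opposite ways. Its levels at days 8 and 12 were 388 and 147 CPM in KO, 181 and 246 CPM in DKO and 75.3 and 72.5 CPM in WT. Both DKO libraries were above both DKO ES libraries, both WT libraries below both WT ES libraries, and the KO libraries lay on either side of KO ES cells. Within DKO it was 7.56-fold higher on differentiation (log2FC 2.96, SE 0.38, adjusted p = 0.0028), and within WT lower (log2FC -1.0, SE 0.35, adjusted p = 0.037). The WT call was lost on leaving out any of the 6 ES libraries or WT day 8 (values between -1.2 and -0.76, adjusted p up to 0.19) and with limma on log2 RPKM (adjusted p up to 0.071). Within KO the change was -0.07 (SE 0.35, adjusted p = 0.90). The change in DKO exceeded that in WT by 3.95 (interaction, SE 0.51, adjusted p = 8.3e-04), and that in KO exceeded WT by 0.93 (SE 0.50, adjusted p = 0.23, not called). Dnmt3a was at 271 and 310.5 CPM in KO, 719.9 and 267 CPM in DKO and 383 and 266 CPM in WT at days 8 and 12, with DKO day 8 far above every other library. Its rise within DKO (log2FC 1.48, SE 0.32, adjusted p = 0.017) was lost without DKO day 8 or either DKO ES library, with values between 0.77 and 2.06 over the leave-outs and adjusted p up to 0.096.

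The maintenance genes fell in WT, with a log2FC of -2.39 for Hells (SE 0.19, adjusted p = 4.1e-05), -1.80 for Uhrf1 (SE 0.15, adjusted p = 5.3e-05) and -0.75 for Dnmt1 (SE 0.12, adjusted p = 0.0011). Hells was at 76.8 and 36.1 CPM in KO at days 8 and 12, 106 and 61.7 CPM in DKO and 25 and 16.8 CPM in WT, all mutant libraries above both WT ones. Uhrf1 was at 216 and 156 CPM in KO, 279 and 146 CPM in DKO and 123 and 64.7 CPM in WT, again with no overlap between mutants and WT. Dnmt1 was at 238 and 200 CPM in KO, 250.4 and 173 CPM in DKO and 207 and 156 CPM in WT, where mutants and WT overlapped. Compared with WT, the change on differentiation was higher in KO by 1.2 for Hells (SE 0.25, adjusted p = 0.018) and by 0.88 for Uhrf1 (SE 0.21, adjusted p = 0.026). In DKO it was higher than in WT by 2.36 for Hells (SE 0.26, adjusted p = 4.0e-04) and by 1.29 for Uhrf1 (SE 0.21, adjusted p = 0.0021). The KO interactions of both genes were lost on leaving out any KO or WT ES library, that of Hells also without KO day 8 (values between 0.95 and 1.43 for Hells and between 0.67 and 1.07 for Uhrf1, adjusted p up to 0.10). The falls of Dnmt1 within KO (log2FC -0.38, SE 0.12, adjusted p = 0.049) and of Uhrf1 within DKO (log2FC -0.51, SE 0.15, adjusted p = 0.044) were lost in most leave-outs and under upper quartile scaling, limma and no filter (adjusted p up to 0.25 and 0.19).

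Tet1 and Tet3 exchanged places in WT. Tet1 was at 359.8 and 151 CPM in KO at days 8 and 12, 634 and 238 CPM in DKO and 86.1 and 44.9 CPM in WT, with all 4 mutant libraries above both WT libraries. Its log2FC was -1.38 in KO (SE 0.21, adjusted p = 0.0033), -0.82 in DKO (SE 0.21, adjusted p = 0.028) and -3.75 in WT (SE 0.23, adjusted p = 1.8e-05). Compared with WT the change was 2.37 higher in KO (interaction, SE 0.29, adjusted p = 0.0036) and 2.93 higher in DKO (SE 0.30, adjusted p = 3.1e-04). Tet3 was at 97.6 and 192 CPM in KO at days 8 and 12, 69.5 and 153 CPM in DKO and 297 and 281 CPM in WT, all mutant libraries below both WT libraries. It rose by 1.22 in KO (SE 0.26, adjusted p = 0.011) and by 3.23 in WT (SE 0.28, adjusted p = 5.7e-05), and in DKO the change was -0.04 (SE 0.25, adjusted p = 0.92). The interactions were -2.01 for KO (SE 0.37, adjusted p = 0.011) and -3.27 for DKO (SE 0.37, adjusted p = 4.8e-04). The Tet3 rise within KO was lost without either KO ES library or KO day 12 (values between 1 and 1.36, adjusted p up to 0.087), and its KO interaction without KO ES replicate 2 or either WT ES library (values between -2.54 and -1.46, adjusted p up to 0.054). The Tet1 fall within DKO was lost without DKO ES replicate 2, DKO day 8, DKO day 12 or either WT ES library (values between -1 and -0.63, adjusted p up to 0.19).

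Tet2 fell in the 3 genotypes, with 93.0 and 90.1 CPM in KO at days 8 and 12, 236 and 118 CPM in DKO and 87.7 and 68.0 CPM in WT. Its log2 fold change was -1.31 in KO (SE 0.24, adjusted p = 0.0066), -1.0 in DKO (SE 0.24, adjusted p = 0.023) and -1.88 in WT (SE 0.24, adjusted p = 3.4e-04), and neither interaction was called (adjusted p = 0.27 for KO and 0.065 for DKO). The DKO call was lost without either DKO ES library or DKO day 12 (values between -1.44 and -0.62, adjusted p up to 0.14). The Tdg row, with its copy, was called in no genotype (adjusted p = 0.22 in KO, 0.52 in DKO and 0.55 in WT).

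Counted over the members, the change on differentiation differed from WT in 5 of 10 genes in KO (4 interactions above 0 and 1 below) and in 6 of 10 in DKO (5 above and 1 below). Of all genes tested 9.07% were above and 7.24% below in the KO interaction (16.3% together), and 21.1% above and 20.8% below in that of DKO (42.0% together). With the 3 genotypes fitted together and genotype as a covariate, 2 members were higher in differentiated cells (Dnmt3a and Tet3) and 5 lower (Dnmt1, Uhrf1, Hells, Tet1 and Tet2), against 20.1% and 15.7% of all genes (35.8% together). Leaving out 1 library at a time lost 5 of these calls. That of Hells was lost in 8 of 12 fits (without any WT library, either KO ES library, KO day 12 or DKO day 12, values between -1.40 and -0.88, adjusted p up to 0.10). That of Tet3 was lost in 7 (the same libraries other than DKO day 12, between 1.14 and 1.79, adjusted p up to 0.10). Dnmt3a lost it in 5 (without either DKO or WT ES library or WT day 8, adjusted p up to 0.063) and stood at 0.57 without DKO day 8, where it was still called, beside 0.91 with every library. Dnmt1 lost it without KO day 12 or either WT ES library, and also with limma on log2(RPKM + 0.5), and Tet1 without KO day 12 or WT day 8 (adjusted p up to 0.055 for Dnmt1 over the leave-outs and 0.069 for Tet1). That fit assumes the same change in the 3 genotypes, and the interactions above show where the changes differed.

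**Figure D3:**
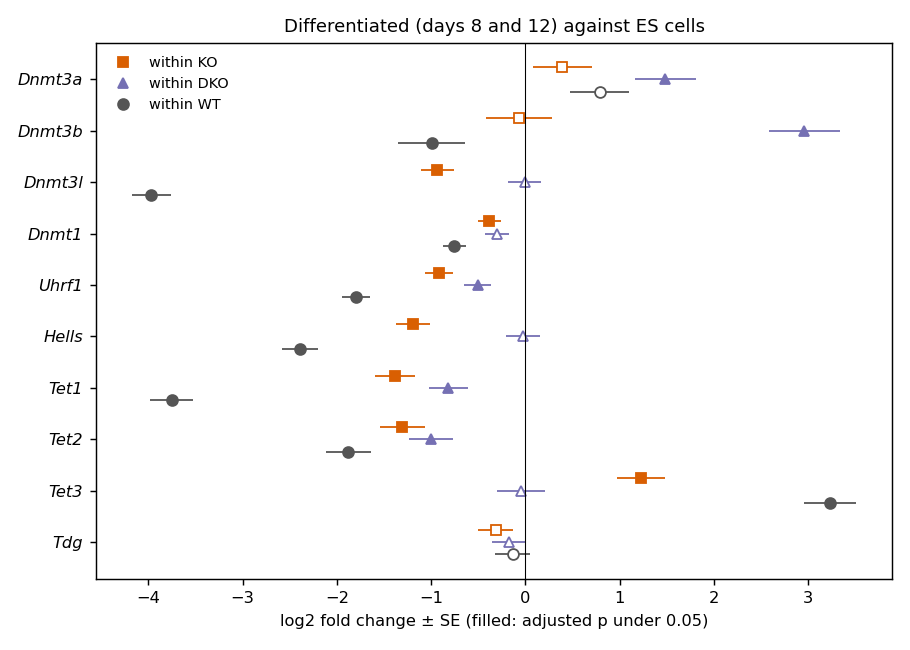
Log2 fold change on differentiation (x axis, days 8 and 12 against ES cells, with SE as bars) of the 10 genes (y axis) within KO, DKO and WT, with filled markers for adjusted p under 0.05. The WT markers of Dnmt3l (-3.97) and Tet1 (-3.75) lie far left of the mutant ones, and that of Tet3 (3.23) far right.

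Set against each other at days 8 and 12, the genotypes gave few calls. The spread in this fit is only how the change between the days varied between genotypes. In KO against WT differentiated cells none of the 10 members was called by edgeR, where 0.0% of 12896 genes were, although 3002 genes had an unadjusted p under 0.05 and DESeq2 called 1836. Of the members 7 had an unadjusted p under 0.05 in that comparison, Dnmt3l with the largest fitted difference (log2FC 4.55, SE 0.30, adjusted p = 0.075). By edgeR, 4 members were higher and none lower in DKO against WT differentiated cells, against 1.52% and 0.659% of all genes (2.18% together). They were Dnmt3l (log2FC 4.24, SE 0.30, adjusted p = 0.04), Tet1 (log2FC 2.64, SE 0.23, adjusted p = 0.043), Tdg with its copy (log2FC 2.45, SE 0.25, adjusted p = 0.043) and Hells (log2FC 1.97, SE 0.24, adjusted p = 0.047). All 4 calls were lost on leaving out any 1 of the 4 KO and DKO libraries, and those of Hells and Tdg also without WT day 8 (adjusted p up to 0.30, with values between 4.01 and 4.47 for Dnmt3l, 2.42 and 2.84 for Tet1, 2.17 and 2.67 for Tdg and 1.78 and 2.17 for Hells). DESeq2 gave many more calls for the members. In KO against WT it called Dnmt3b, Dnmt3l, Uhrf1, Hells, Tet1 and Tdg higher and Tet3 lower, and limma on log2(RPKM + 0.5) called Dnmt3l, Tet1 and Tdg higher. In DKO against WT DESeq2 called, beside the 4 named, Dnmt3b, Uhrf1 and Tet2 higher and Tet3 lower. In DKO against KO no member was called by edgeR (adjusted p between 0.24 and 0.95, with 0.00775% of all genes called and 2 members at an unadjusted p under 0.05), and none between day 12 and day 8 (adjusted p between 0.37 and 0.88, 0.0% of genes called, 4 members at an unadjusted p under 0.05). DESeq2 called 1176 and 563 genes in these 2 comparisons.

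The share of each paralog per length summarises the exchange. Tet3 made up 6.54% and 8.43% of the summed RPKM of the 3 Tet genes in KO ES cells, 11.8% and 9.11% in DKO ES cells and 3.09% and 3.17% in WT ES cells. At days 8 and 12 it made up 20.1% and 46.1% in KO, 8.27% and 32.0% in DKO and 63.5% and 70.9% in WT. Tet3 was thus the leading paralog in both WT differentiated libraries and in KO day 12, and Tet1 in the other 9 libraries. Dnmt3b made up 73.9% and 71.1% of Dnmt3a plus Dnmt3b in KO ES cells, 27.9% and 28.0% in DKO ES cells and 63.8% and 64.8% in WT ES cells. At day 8 it made up 76.4% in KO, 36.2% in DKO and 30.8% in WT. At day 12 DKO was highest, with 51.7% in KO, 67.5% in DKO and 38.0% in WT.

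**Figure D4:**
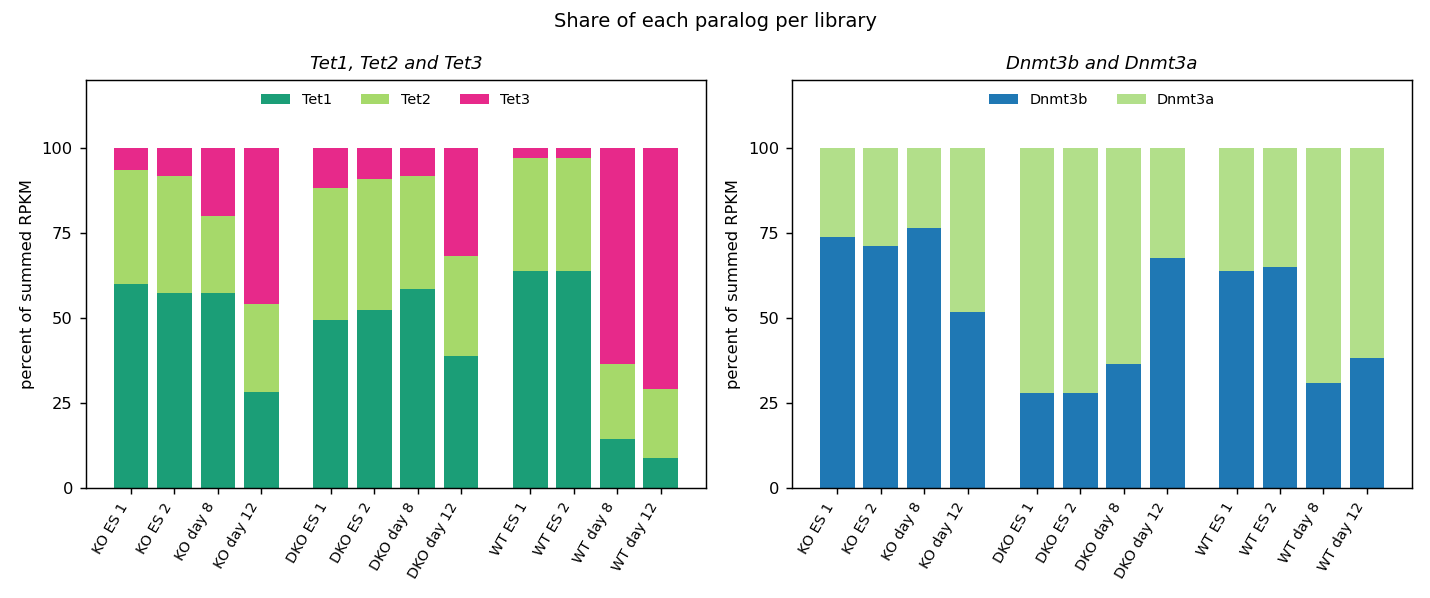
Percent of the summed RPKM (y axis) held by Tet1, Tet2 and Tet3 (left) and by Dnmt3b and Dnmt3a (right) in each of the 12 libraries (x axis), grouped as KO, DKO and WT. Tet3 takes 63.5% and 70.9% in WT at days 8 and 12, and Dnmt3b takes 27.9% and 28.0% in the DKO ES libraries.

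Levels of marker genes of cell states and of replication genes were set beside these results. At days 8 and 12 the 18 pluripotency markers summed to 7689 and 4016 CPM in KO, 14030 and 8754 CPM in DKO and 1993 and 2480 CPM in WT. By edgeR none of the 18 was called in KO against WT differentiated cells, and 11 were higher and none lower in DKO against WT. The change on differentiation was above that of WT for 14 of the 18 and below it for 1, a count that KO and DKO each gave. Klf4 and Tbx3, named after their values were seen, were below WT in KO: Klf4 was at 37.4 and 51.1 CPM in KO, against 55.1 and 622 CPM in WT, and Tbx3 at 127 and 158 CPM in KO, against 208 and 265 CPM in WT, at days 8 and 12. Klf4 alone rose by more than the WT sum did from day 8 to day 12. With the 3 genotypes fitted together, the median of the 18 markers changed by -1.07 (log2) between these days, and none was called. The 11 primed epiblast markers summed to 1205 and 484 CPM in KO, 1527 and 1551 CPM in DKO and 217 and 469 CPM in WT at days 8 and 12, and to 932 and 1047 CPM in KO ES cells, 734 and 669.6 CPM in DKO ES cells and 788 and 860.0 CPM in WT ES cells. Within DKO, where Dnmt3b rose, 6 of these 11 rose on differentiation and none fell (median log2 fold change 2.21). Of all genes 10.4% rose and 9.24% fell there. Within KO, where Dnmt3b was not called, 5 rose and 3 fell (median 0.92), against 15.8% and 13.5% of all genes. Within WT, where Dnmt3b fell, 3 rose and 4 fell (median 0.05), against 31.2% and 29.8% of all genes. Whether these markers and Dnmt3b are linked was not tested. The 25 replication and proliferation genes, all at 1 CPM or more in every library, summed to 4389 and 3040 CPM in KO, 5141 and 3336 CPM in DKO and 2814 and 1770 CPM in WT at days 8 and 12, and to between 5139 and 5551 CPM in the 6 ES libraries. Endoderm markers (13 listed, 12 or 13 of them at 1 CPM or more in each differentiated library) summed to 209 and 1520 CPM in KO, 381 and 4105 CPM in DKO and 2751 and 5277 CPM in WT at days 8 and 12, and to at most 207 CPM in an ES library, with Afp at 0 reads in 5 of the 6 ES libraries. The 16 fibroblast and mesenchyme markers summed to 1915 and 4572 CPM in KO, 1918 and 1332 CPM in DKO and 11410 and 6897 CPM in WT at days 8 and 12, with Lum at 0 reads in KO day 8 and DKO day 12 and Postn and S100a4 in DKO day 8. In ES cells they summed to 1015 and 928.7 CPM in KO, 2778 and 2675 CPM in DKO and 1697 and 1697 CPM in WT. Fn1, named after its values were seen, held 1809 CPM of the DKO day 8 sum. Within DKO none of the 15 tested was called on differentiation, beside 10.4% of all genes higher and 9.24% lower. The 15 mesoderm, blood and cardiac markers summed to 394 and 759.7 CPM in KO, 125 and 252 CPM in DKO and 3502 and 223 CPM in WT, and 11 neural markers to 303 and 295 CPM in KO, 414 and 354 CPM in DKO and 128 and 112 CPM in WT. In ES cells the mesoderm, blood and cardiac markers summed to 233.5 and 213.2 CPM in KO, 123.6 and 117.7 CPM in DKO and 111.4 and 109.9 CPM in WT. The neural markers summed there to 625 and 748 CPM in KO, 731 and 648 CPM in DKO and 369 and 380 CPM in WT. Their sums were thus lower at days 8 and 12 than in ES cells in each genotype. The part of these cell states in the differences between genotypes was not tested.

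Over the 12 libraries, which include replicates and share genotypes, the Pearson correlation of log2(CPM + 1) with the summed pluripotency markers was 0.95 for Tet1, 0.92 for Tet2, 0.91 for Hells, 0.88 for Uhrf1, 0.78 for Dnmt3l, 0.76 for Dnmt1, 0.43 for Tdg, -0.03 for Dnmt3b, -0.42 for Dnmt3a and -0.81 for Tet3. Tet1, Tet2, Hells and Uhrf1 thus followed the summed markers closely over the 12 libraries. Dnmt3b did not, being lowest in DKO ES cells, where the sum was highest. A sum weighs abundant markers most, and the single markers differed in direction. In DKO against WT ES cells 6 of the 18 were higher and 9 lower (median log2 fold change -0.22), against 32.2% and 31.7% of all genes. Among the ES libraries alone, Hells and Uhrf1 ran against the sum too. Both were highest in KO, where the sum was lowest, and lowest in DKO. Tet2 had the order of the sum there, and Tet1 was highest in WT. The single markers had no shared order. In KO against WT ES cells 5 of the 18 were higher and 7 lower, against 23.5% and 19.2% of all genes. In DKO against KO ES cells 7 were higher and 7 lower, against 33.3% and 34.1% of all genes.

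**Figure D5:**
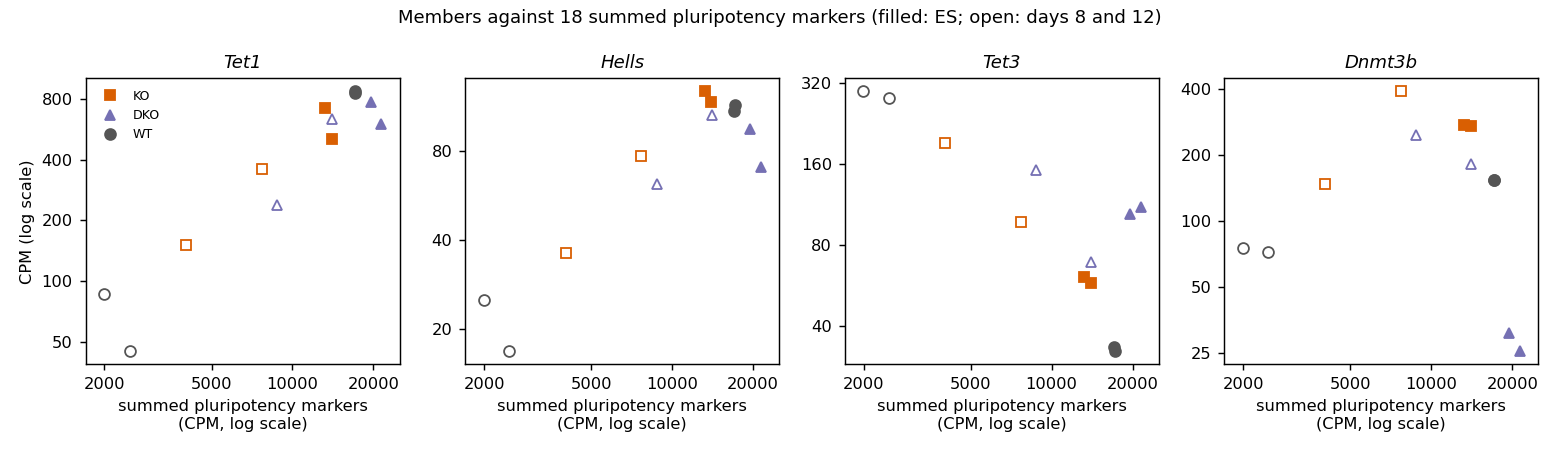
Level of Tet1, Hells, Tet3 and Dnmt3b (y axes, CPM, log scale) against the summed level of 18 pluripotency markers (x axes, CPM, log scale) in the 12 libraries, filled for ES cells and open for days 8 and 12. Tet1 and Hells rise with the summed markers over the libraries (r = 0.95 and 0.91, no test), Tet3 falls (r = -0.81), and the 2 DKO ES libraries stand apart at low Dnmt3b.

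The genes most like each member were named by the Pearson correlation of log2(CPM + 1) over the 12 libraries among 9211 genes. For Tet1 they were Mtf2, a Polycomb partner (r = 0.99), 2610002D18Rik (0.98) and Uba2 (0.98), and for Tet2 Zfp57, which binds methylated imprinting control regions (0.97), Cdyl2 (0.97) and Napepld (0.96). For Uhrf1 they were Fkbp5 (0.99), the DNA ligase Lig1 (0.99) and the polymerase Pole (0.98), for Hells Zfp534, Rrn3 and Gm13051 (each 0.99), and for Dnmt1 Banf1 (0.97), Nit2 (0.97) and Ubap2 (0.96). Dnmt3l was nearest to Thumpd3, Zfp819 and Gdf3 (0.98, 0.98 and 0.97), Tet3 to Zfp362, Gas1 and Bin1 (each 0.99), Dnmt3b to Mrps28, Ifitm1 and Ppp1r1a (0.96, 0.94 and 0.94) and Dnmt3a to Pfkm, Smpd2 and Trerf1 (0.90, 0.89 and 0.86). Tdg was nearest to its copy Gm9855 (1.0), Rpl29 (0.98) and Olig2 (0.96). Between members, Uhrf1 correlated with Hells and with Tet1 at 0.96 each and with Dnmt1 at 0.93, and Tet3 with Dnmt1 at -0.89. Differentiation moves many genes at once in these libraries, so high values are common and are given as a description.

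The neighbouring parts of the pathway were described by lists, whose counts stand beside 23.5% of all genes higher and 19.2% lower in KO against WT and 32.2% higher and 31.7% lower in DKO against WT ES cells. Of 12 partners and regulators of methylation 11 were tested in ES cells, of which 2 were higher and 1 lower in KO against WT and 2 were higher and 7 lower in DKO against WT (median log2 fold change -0.08 and -0.54). Prdm14, which represses Dnmt3b and Dnmt3l in mouse ES cells, was at 61.6 and 64.1 CPM in KO, 11.6 and 12.7 CPM in DKO and 41.1 and 40 CPM in WT ES cells. It was higher in KO than in WT (log2FC 0.66, SE 0.12, adjusted p = 0.0011) and lower in DKO (-1.73, SE 0.13, adjusted p = 4.4e-07), the same signs as Dnmt3b. Dppa3 (Stella), which keeps Uhrf1 from chromatin, was at 14.5 and 15.7 CPM in KO, 0 and 0.165 CPM in DKO (0 and 4 reads) and 2.72 and 1.59 CPM in WT ES cells, higher in KO than in WT (log2FC 2.83, SE 0.33, adjusted p = 3.1e-05). Uhrf2, a paralog of Uhrf1, was at 102 and 118 CPM in DKO and 54.8 and 47.4 CPM in WT ES cells, without overlap (log2FC 1.11, SE 0.14, adjusted p = 2.0e-05).

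Of 8 readers of methylated DNA 7 were tested in ES cells, with 2 higher and 2 lower in KO and 4 higher and 1 lower in DKO against WT (median log2 fold change 0.15 and 0.79), beside 42.7% and 63.9% of all genes called in either direction. Mbd2, which binds methylated CpG, was at 56.5 and 56.7 CPM in DKO and 21.8 and 26.4 CPM in WT ES cells (log2FC 1.24, SE 0.15, adjusted p = 1.4e-05). Zfp57 fell on differentiation over the 3 genotypes by 2.22 (SE 0.39, adjusted p = 0.0033), and Zbtb4 rose by 3.0 (SE 0.73, adjusted p = 0.012). Zbtb4 was at 18 and 66.7 CPM in KO, 14.7 and 52.4 CPM in DKO and 95.1 and 135 CPM in WT at days 8 and 12, and at 6.38 and 6.98 CPM in KO, 14.8 and 15.6 CPM in DKO and 2.85 and 2.61 CPM in WT ES cells, so DKO day 8 did not exceed its ES libraries.

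Of 18 Tet regulators and base excision repair genes 17 were tested, with 4 higher and 4 lower in KO and 6 higher and 4 lower in DKO against WT ES cells (median -0.09 and -0.12), shares near those of all genes (42.7% and 63.9% called). The glycosylase Neil2 was at 7.34 and 6.94 CPM in KO, 75 and 77.8 CPM in DKO and 22.4 and 22.2 CPM in WT ES cells, lower in KO (-1.61, SE 0.14, adjusted p = 3.4e-06) and higher in DKO (1.79, SE 0.13, adjusted p = 2.6e-07). Gadd45a was higher in DKO, at 192 and 182 CPM against 42.3 and 47.0 CPM in WT ES cells (log2FC 2.08, SE 0.12, adjusted p = 3.8e-08). The uracil glycosylase Ung was lower there, at 72.8 and 71.0 CPM against 134 and 134 CPM in WT (log2FC -0.89, SE 0.11, adjusted p = 2.1e-05). Of 12 genes of the methyl donor cycle 11 were tested, with 1 higher and 3 lower in KO and 3 higher and 5 lower in DKO against WT (median -0.03 and 0.17), beside the same 42.7% and 63.9%. Mat2a, which makes S-adenosylmethionine, was at 127 and 119 CPM in DKO and 425 and 467 CPM in WT ES cells (log2FC -1.85, SE 0.12, adjusted p = 7.8e-08). Ahcy, which clears S-adenosylhomocysteine, was at 307 and 313 CPM in KO, 89.8 and 82.8 CPM in DKO and 188 and 190.2 CPM in WT ES cells, higher in KO than in WT (log2FC 0.74, SE 0.11, adjusted p = 1.5e-04) and lower in DKO than in KO (log2FC -1.86, SE 0.11, adjusted p = 3.5e-08).

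Of 14 germline genes known to be held silent by promoter methylation 8 passed the filter on low values in ES cells. Among the ES libraries Smc1b and Dazl were high in KO alone, so the filter partly fixes a count of called genes, and none is given. Tuba3a was at 112 and 125 CPM in KO, 0.406 and 0.617 CPM in DKO and 7.29 and 7.43 CPM in WT ES cells, and Tex19.1 at 218 and 234 CPM in KO, 14.9 and 13.1 CPM in DKO and 63.9 and 67.5 CPM in WT, both highest in KO and lowest in DKO. Ddx4 had another order, at 6.80 and 6.63 CPM in KO, 14.8 and 19.0 CPM in DKO and 9.46 and 11 CPM in WT ES cells, higher in DKO than in WT (log2FC 0.73, SE 0.19, adjusted p = 0.0053). Smc1b, a meiotic cohesin subunit, was at 19.7 and 19.6 CPM in KO, 0.587 and 0.699 CPM in DKO and 0.293 and 0.204 CPM in WT ES cells, and Dazl at 17.3 and 18.6 CPM in KO, 0.587 and 0.699 CPM in DKO and 1.22 and 0.735 CPM in WT ES cells. Asz1 was at 0 reads in both DKO and both WT ES libraries. Whether these genes and the members are linked was not tested, and DNA methylation was not measured in these files.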

How the data were processed

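Polyadenylated RNA of 12 libraries was measured by Illumina sequencing, per the labels' protocols. Reads were aligned with Bowtie2 to mm9, per the submitters' processing notes; its version, the counting program and the use of strand or of reads with several matches are not given in the sources used here. For 29257 RefSeq transcript models the deposited tables give whole-number read counts, and RPKM that the authors made by dividing counts by exon length and a library total. From the counts, the longest model per symbol was tested with edgeR 4.0.16 (quasi-likelihood, TMM scaling, R 4.3.3), with a filter of 1 RPKM in at least 2 of a fit's libraries and Benjamini-Hochberg adjustment over all genes tested. The ES fit had 6 libraries, the differentiated fit 6 with genotype and day, and the others 12. The standard error is the fold change over the square root of F. DESeq2 1.42.0 and limma 3.58.1 on log2(RPKM + 0.5) were alternatives. The steps were tested on simulated data. Plots were drawn with matplotlib 3.10.9. Named were all members, the targeted genes, up to 3 genes per list and comparison, and 3 most alike genes per member; neighbouring genes were named after their values were seen. A listed gene that this rule names is not reported here. Members and lists were chosen with earlier results of these data known. Promoter windows are RefSeq's on GRCm38.p6, matched by symbol for all 10 members.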

Additional observations from a re-analysis of the deposited data

Results flagged for a closer look

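Flagged were the members whose change on differentiation (days 8 and 12 against ES cells, log2) differed between a mutant and WT by the test of the difference itself, edgeR's interaction term with adjusted p under 0.05. For KO minus WT these were Dnmt3l at 3.03, Tet1 at 2.37, Hells at 1.2, Uhrf1 at 0.88 and Tet3 at -2.01. For DKO minus WT they were Dnmt3l at 3.96, Dnmt3b at 3.95, Tet1 at 2.93, Hells at 2.36, Uhrf1 at 1.29 and Tet3 at -3.27. The positive values of Dnmt3l, Tet1, Hells and Uhrf1 go with smaller falls in the mutants than in WT, except that Dnmt3l and Hells had no called change in DKO, and that of Dnmt3b with a rise in DKO beside a fall in WT. The negative values of Tet3 go with a smaller rise in KO than in WT and no called change in DKO. Each mutant and WT had 2 ES libraries and 1 library a day, and both mutants were set against the same WT libraries. No group had the 4 libraries that the search for outlying samples needs.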

How the results depend on the processing

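Of 110 results on single members (10 genes in 11 comparisons) 59 were called; 47 of these stayed called in every alternative other than leaving out a library, 31 also in every leave-out, and none reversed. Counts of called genes left the range of 1.5 times the reported one as follows. KO against WT ES cells gave 3265 with a filter of 5 RPKM and 2022 with all 12 libraries fitted, and DKO against WT ES cells 5089 with the latter. In differentiated cells KO against WT gave 1836 with DESeq2, 155 with limma on log2(RPKM + 0.5), 136 on log2(RPKM + 1) and 7 with no filter; DKO against WT gave 3139, 821 and 714 with the first 3 of these; DKO against KO gave 1176, 5 and 5, and 0 without chromosomes 1, 11, 14, X and Y; day 12 against day 8 gave 563 with DESeq2, and the KO interaction 3308. Leaving out 1 library at a time gave 3206 to 6368 calls for KO against WT, 5930 to 7745 for DKO against WT and 6527 to 8192 for DKO against KO in ES cells. In differentiated cells it gave 0 to 0, 0 to 1816 and 0 to 251, and 0 to 0 for the days. On differentiation it gave 2938 to 6165 over 3 genotypes, 1010 to 5662 within KO, 506 to 4546 within DKO and 5897 to 8615 within WT, and for the interactions 395 to 3891 (KO) and 3612 to 6763 (DKO). Uncalled values that changed sign, all near 0, were, on differentiation within KO, Dnmt3b (0.005 and 0.007 with limma at the 2 pseudocounts); within DKO, Dnmt3l (0.031 with upper quartile scaling, 0.073 and 0.072 with limma, 0.011 with the 5 RPKM filter), Hells (0.015, then 0.069 and 0.067 with limma) and Tet3 (0.032 and 0.039 with limma); and the Tdg interaction of DKO (0.103 with upper quartile scaling, 0.002 with no filter). Leave-outs reversed uncalled values within these ranges: Tet1 -0.121 to 0.393 and Tdg -0.298 to 0.071 (DKO against KO, ES); Dnmt3a -0.753 to 0.379 and Tet2 -0.091 to 0.505 (KO against WT, differentiated); Dnmt3a -0.179 to 1.033 (DKO against WT, differentiated); Dnmt3a -0.241 to 0.84 and Dnmt3b -1.044 to 0.64 (within KO); Dnmt3l -0.146 to 0.118, Hells -0.225 to 0.193, Tet3 -0.398 to 0.267 and Tdg -0.4 to 0.023 (within DKO); Dnmt3a -1.028 to 0.073 and Dnmt3b -0.006 to 1.657 (KO interaction) and Tdg -0.23 to 0.199 (DKO interaction). The replicate block, with the ES titles' numbers, gave 4790, 7437 and 7864 calls for KO against WT, DKO against WT and DKO against KO. It moved 1 member call (Dnmt1, DKO against WT). Over 9211 genes, same-numbered libraries did not deviate together (correlations -0.0, -0.05 and -0.09). Values near 0 over all genes do not show whether same-numbered libraries shared a batch, and the labels do not say what the numbers mean. The causes were not tested. Leaving an ES group or a genotype and day with 1 library assumes that it varies like the others. The ES fit had 3 residual degrees of freedom and the differentiated one 2, and depth as a limit was not varied.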
